A study of Drosophila melanogaster with 12 samples.

Results

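Acox57D-d (FBgn0034629) encodes an acyl-CoA oxidase of the fruit fly, and it is described here beside 6 other genes of peroxisomal fatty acid oxidation. Acox57D-d was chosen by its measured level, which was lower in flies exposed to chronic circadian misalignment (CCM) than in control flies at week 2, so its week 2 values are given as a description with no test. The other 6 genes are those for the oxidases Acox57D-p (FBgn0034628), CG4586 (FBgn0029924), CG9527 (FBgn0031813) and CG17544 (FBgn0032775), for the multifunctional enzyme Mfe2 (FBgn0030731) and for the thiolase ScpX (FBgn0015808). These 7 genes are 7 of the 14413 features that were counted, and all 7 passed the filter on low counts in each comparison.

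Peroxisomes shorten fatty acids by beta-oxidation, a cycle that removes an acetyl unit from the chain at each turn. An acyl-CoA oxidase carries out the first step and passes electrons to oxygen, which yields hydrogen peroxide that catalase then breaks down. A multifunctional enzyme of the MFE-2 type carries out the hydratase and dehydrogenase steps, and an SCPx-type thiolase cleaves the shortened chain. In animals this route handles chains that are very long or branched, while mitochondria oxidize the more common ones.

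RNA was measured by sequencing in whole flies of the iso31 strain, a laboratory line, kept on a diet of sucrose and agar. For 2 or 3 weeks, control flies lived on a 24 h cycle of equal light and dark phases (12 h each) and CCM flies on a 28 h cycle (14 h each). Each of the 4 groups had 3 samples, lettered A, B and C, and each sample pooled 10 males and 10 females collected between ZT0 and ZT3 (hours after lights on). No group carried a transgene or mutation by its labels, and the flies' age at the start is not given in the labels. Samples held 17842804 to 23687266 counts with a median of 21231935, and at week 3 the CCM totals (21506910 to 21925648) lay above all control totals (17842804 to 19162218). Levels are given as CPM, the counts of a gene relative to its sample's TMM-scaled library size, and 3 counts correspond to at most 0.17 CPM. In whole flies, fewer cells of a type and less RNA per cell cannot be told apart.

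By the BDGP6 annotation, which is the dm6 build, Acox57D-d lies on chromosome arm 2R at 21389405 to 21392439 on the plus strand, with 8 exons that span 2252 bases in all, 2031 of them coding. Acox57D-p lies just before it on the same strand, at 21386309 to 21389276 with 7 exons and a coding length of 2031, and 128 bases separate the neighbours. CG4586 is on X (6969918 to 6972265), CG9527, named Acox3 in that annotation, on 2L (6426724 to 6448403) and CG17544 also on 2L (19390370 to 19398493). Mfe2 is on X (16270951 to 16273815) and ScpX on 2L (18831229 to 18833630). The exons of Acox57D-d share 38 bases, or 1.69% of their length, with those of Sdc on the opposite strand, and whether the counting used strand is not stated. Reads shared by ScpX and CG17597 formed a merged feature of their own, which held at most 3.35% of the counts of that feature and ScpX together.

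Acox57D-d had its highest level in control flies at week 2, about the same level in CCM flies at week 2 and control flies at week 3, and its lowest level in CCM flies at week 3. In control flies at week 2 it stood at 28.7, 31.8 and 34.8 CPM in samples A, B and C (31.8 ± 3.05, SD, n = 3). In CCM flies at week 2 the samples gave 18.9, 19.4 and 19.1 CPM (19.1 ± 0.243). All CCM samples lay below all control samples at this week, which was so for 7.66% of all features, with a log2 fold change (log2FC) of -0.72 (standard error 0.08), which is the value by which the gene was picked. In control flies at week 3 the level was 17.2, 18.8 and 21.6 CPM (19.2 ± 2.19), a range that encloses that of CCM flies at week 2. In CCM flies at week 3 it was 11.9, 14.4 and 16.0 CPM (14.1 ± 2.09). These values rest on 242 to 838 counts per sample.

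**Figure D1:**
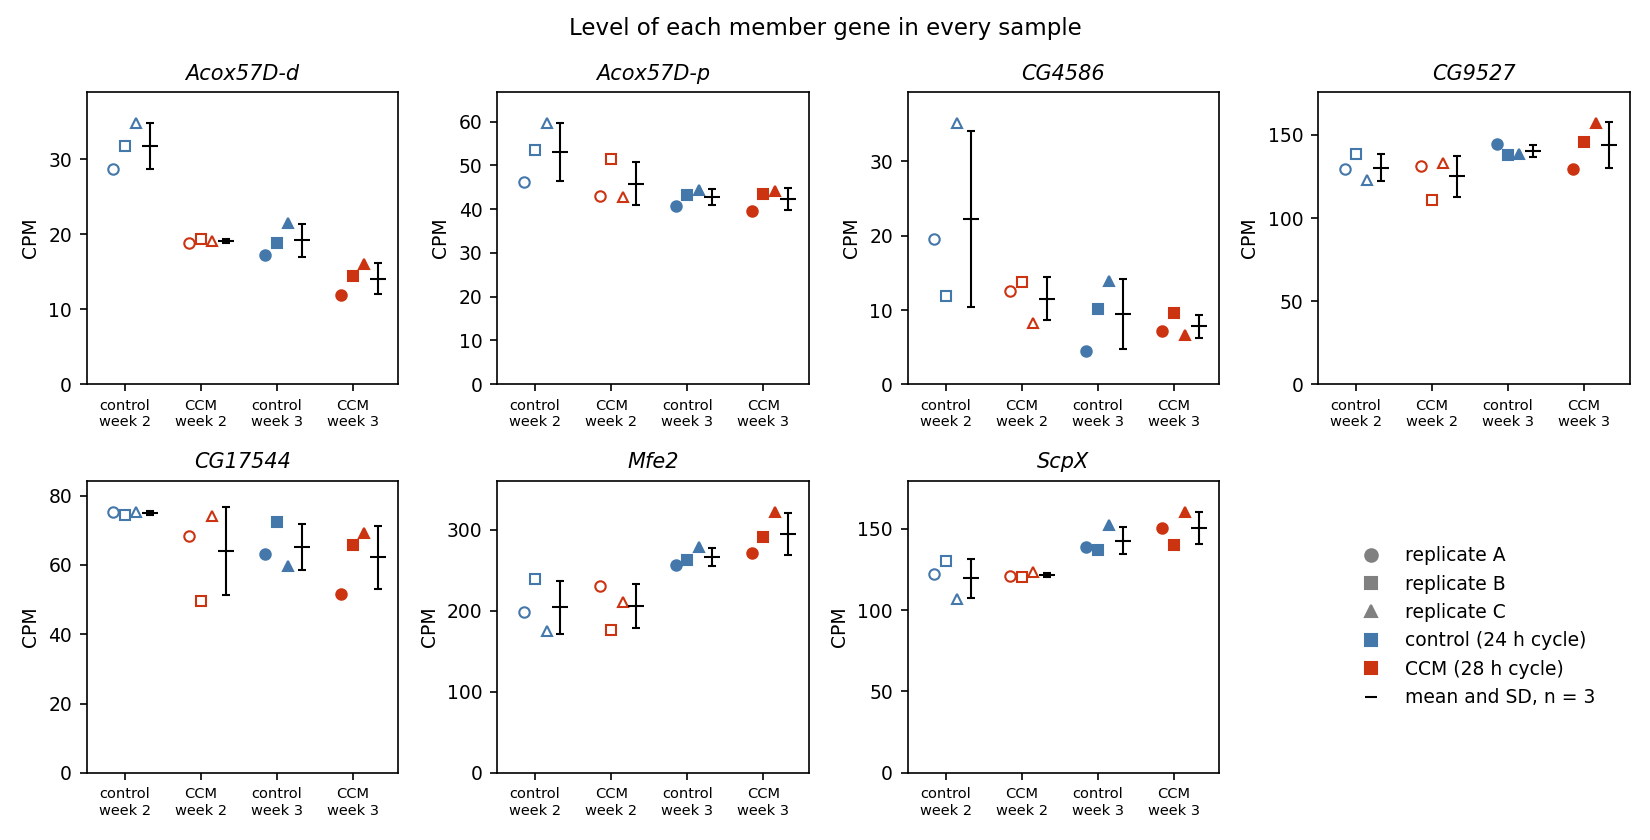
CPM of each of the 7 genes (vertical axis, from 0) in every sample of the 4 groups, with open symbols for week 2, filled symbols for week 3, a symbol shape for each replicate letter and bars for mean and SD (n = 3). Acox57D-d averages 31.8 CPM in control flies at week 2 and 14.1 in CCM flies at week 3, whereas Mfe2 is higher in both week 3 groups than in both week 2 groups.

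The week 3 samples played no part in the choice of Acox57D-d, and the comparison of schedules at week 3 asks whether the gene was lower again after a longer exposure. All 3 CCM samples were below all 3 control samples, and within each letter the CCM sample was lower, by 31.1% in A, 23.5% in B and 25.7% in C. The log2FC was -0.45 (standard error 0.15), a ratio of 0.733. With edgeR's quasi-likelihood test the unadjusted p was 0.0149, the 639th smallest of 12208 features, and the adjusted p was 0.28, which does not pass the threshold of 0.1. At week 3 the samples of the same letter deviated together, and with the letter as a replicate block the log2FC was -0.45 and the adjusted p of edgeR 0.056, past the threshold. Non-overlap in this direction was common: 11.1% of all features had every CCM sample below every control sample at week 3, 9.34% passed with the block, and 0.0164% passed without it.

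Leaving out any 1 of the 6 libraries kept the week 3 log2FC of Acox57D-d between -0.55 and -0.34, with an adjusted p of 0.34 to 0.63 in edgeR without the block. Sdc, whose exons overlap those of Acox57D-d, was also lower at week 3, with a mean of 55.4 ± 12.4 CPM in CCM flies and 87.0 ± 28.4 in control flies. At week 2 it stood the other way, at 195 ± 76.2 CPM in CCM flies and 132 ± 59.7 in control flies. The part of the shared bases in the counts of Acox57D-d was not tested.

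Acox57D-p, the neighbouring oxidase gene, did not show this week 3 difference. It stood at 40.8, 43.3 and 44.3 CPM in control samples A, B and C and at 39.5, 43.5 and 44.2 in the CCM samples. The groups overlapped almost entirely, and the log2FC was -0.01 (standard error 0.06, adjusted p 0.97 by edgeR).

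The ratio of Acox57D-d to Acox57D-p within a sample sets the neighbours side by side without any scaling between libraries. It was 0.423, 0.435 and 0.487 in control flies at week 3 and 0.30, 0.331 and 0.362 in CCM flies, again without overlap. The difference of the log2 ratio was -0.44 (standard error 0.10), and the exact two-sided permutation test gave p = 0.1, the smallest value that 3 against 3 samples allow. At week 2, which chose the gene, the ratio was 0.600 ± 0.019 in control flies and 0.420 ± 0.039 in CCM flies. The control value at week 3, 0.448 ± 0.034, was thus near the CCM value a week earlier.

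**Figure D2:**
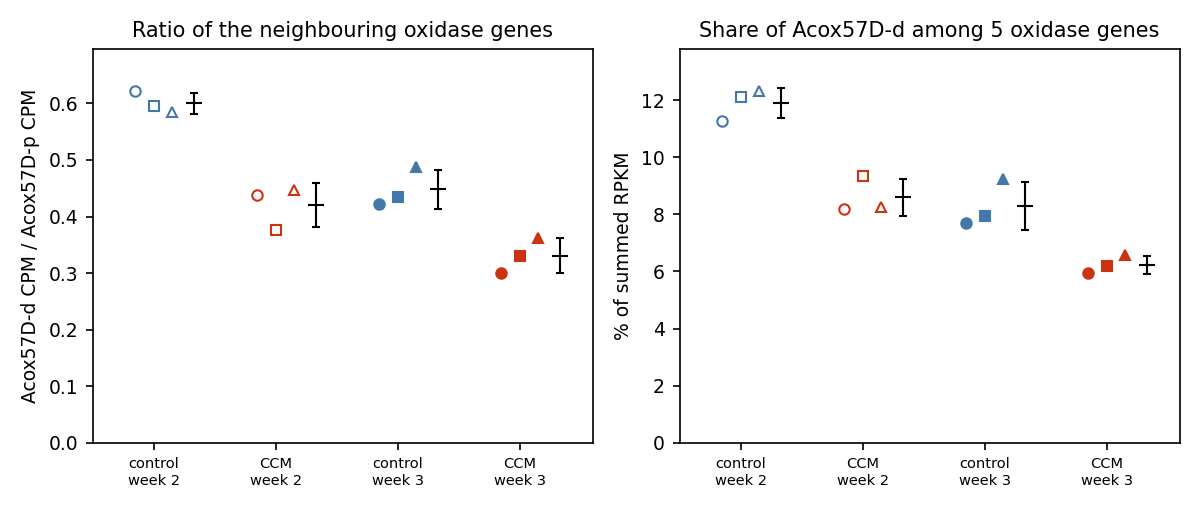
Left, CPM of Acox57D-d divided by CPM of Acox57D-p in every sample; right, Acox57D-d as a percentage of the summed RPKM of the 5 oxidase genes, with symbols as for the levels by sample and bars for mean and SD (n = 3). In both panels the CCM samples of a week lie below its control samples, from 0.423 to 0.487 against 0.30 to 0.362 for the ratio at week 3.

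Per length, Acox57D-d was among the less abundant members. In control flies at week 2 the mean level in RPKM (CPM per 1000 exonic bases) was 90.1 ± 14.3 for Mfe2, 63.5 ± 6.33 for ScpX, 45.1 ± 2.76 for CG9527, 28.5 ± 0.177 for CG17544, 20.8 ± 2.62 for Acox57D-p, 14.1 ± 1.35 for Acox57D-d and 9.92 ± 5.28 for CG4586. Only the last pair in this order overlapped within the spread, since the 3 samples of CG4586 ran from 5.33 to 15.7 RPKM and those of Acox57D-d from 12.8 to 15.5. Among the 5 oxidases Acox57D-d made up 11.9% ± 0.540 of the summed RPKM in control flies and 8.59% ± 0.652 in CCM flies at week 2. At week 3 its share was 8.28% ± 0.830 in control flies and 6.24% ± 0.316 in CCM flies, with 7.68% to 9.23% in the control samples and 5.95% to 6.58% in the CCM samples. The sum itself was 103 ± 2.89 RPKM in control flies and 99.9 ± 10.2 in CCM flies at week 3, and these groups overlapped.

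At week 2, where schedules were compared after the shorter exposure, none of the 6 members besides Acox57D-d passed the threshold: 0 of 6 had an adjusted p under 0.1 by edgeR, against a background of 0% of 12356 features. At an unadjusted p under 0.05 there was 1 of the 6, CG4586, where 5.67% of all features were, and DESeq2 called 0 of the 6, where it called 0.049% of all features. CG4586, of the oxidase family, varied the most among replicates, at 19.6, 11.9 and 35.1 CPM in control flies and 12.6, 13.8 and 8.23 in CCM flies. Its groups overlapped, and its log2FC was -0.93 (standard error 0.49, adjusted p 0.71 by edgeR). CG17544, another member of the oxidase family, was at 75.2, 74.5 and 75.4 CPM in control flies and at 68.4, 49.6 and 74.1 in CCM flies. All CCM samples were lower here, as for 7.66% of all features, but A and B carried the difference. The log2FC was -0.22 (standard error 0.18, adjusted p 0.72 by edgeR). The log2FC of the other members lay between -0.20 for Acox57D-p and 0.03 for ScpX.

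At week 3 again 0 of 7 members passed by edgeR, beside 0.0164% of all features, and DESeq2 called 0 of 7 beside 3.52%. Only Acox57D-d had an unadjusted p under 0.05, which 12% of all features had. With the replicate block 1 of 7 passed, Acox57D-d, beside 9.34% of all features. Mfe2, which carries out the steps after the oxidase, was higher in the CCM sample of every letter, with 256, 263 and 278 CPM in control flies and 271, 291 and 322 in CCM flies. The groups overlapped and the log2FC was 0.15 (standard error 0.08, adjusted p 0.61 by edgeR). For ScpX, the thiolase, it was 0.07, for CG9527 0.04, for CG17544 -0.07 and for CG4586 -0.27 with a standard error of 0.48. The median log2FC of the members was -0.01, and that of all features was -0.0014.

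**Figure D3:**
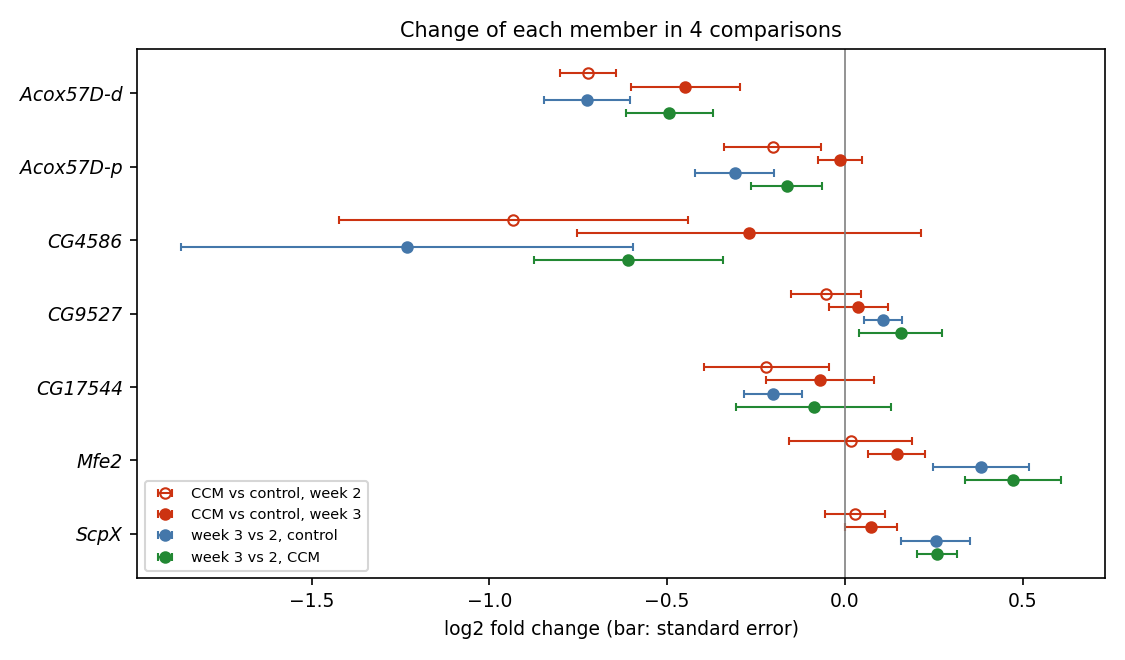
Log2FC (horizontal axis) with standard error for the 7 genes in 4 comparisons, CCM against control at week 2 (open) and week 3 (filled red) and week 3 against week 2 in control flies (blue) and CCM flies (green). Acox57D-d lies below 0 in all 4, from -0.73 to -0.45, while Acox57D-p is at -0.01 for the schedules at week 3 and Mfe2 and ScpX lie above 0 with age under both schedules.

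Between week 2 and week 3 Mfe2 rose under both schedules, and in CCM flies ScpX rose and CG4586 fell. Acox57D-p, CG9527 and CG17544 passed the main edgeR test under neither schedule. The comparisons with age use week 2 samples, so the values of Acox57D-d in them are a description. Under each schedule the week 2 samples are shared with the comparison that picked the gene. In control flies the log2FC of Acox57D-d was -0.73 (standard error 0.12) and in CCM flies -0.49 (standard error 0.12). All week 3 samples lay below the week 2 samples of their schedule. That was so for 2640 of 12200 features in control and 3755 of 12348 in CCM flies.

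In control flies Mfe2 went from 198, 239 and 175 CPM to 256, 263 and 278, and in CCM flies from 230, 176 and 210 to 271, 291 and 322. All week 3 samples lay above the week 2 samples of their schedule, which was so for 22.1% of all features in control and 32% in CCM flies. By edgeR the log2FC was 0.38 (standard error 0.14, adjusted p 0.089) in control flies and 0.47 (standard error 0.13, adjusted p 0.0132) in CCM flies. The control call was lost (adjusted p of 0.16 to 0.23) when any of the libraries control week 2 A or C or control week 3 A, B or C was left out, and kept (0.0238) without control week 2 B. The CCM call was kept without any 1 library, with an adjusted p of 0.0115 to 0.0459.

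ScpX rose in CCM flies, from 121, 121 and 123 CPM to 151, 140 and 160, with a log2FC of 0.26 (standard error 0.06, adjusted p 0.041 by edgeR). In control flies it was at 122, 130 and 107 CPM at week 2 and at 139, 137 and 152 at week 3. There too the weeks did not overlap, as for 22.1% of all features in this direction. The log2FC of 0.26 (standard error 0.10) had an adjusted p of 0.16 by edgeR.

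CG4586 fell in CCM flies by edgeR, with a log2FC of -0.61 (standard error 0.27, adjusted p 0.080), although its values of 12.6, 13.8 and 8.23 CPM at week 2 and 7.11, 9.60 and 6.69 at week 3 overlapped. That call was kept only without CCM week 2 C or CCM week 3 B and was lost (adjusted p up to 0.23) without any of the other 4 libraries. In control flies its log2FC was -1.23 (standard error 0.64), with an adjusted p of 0.101 by edgeR, just outside the threshold, and it passed by DESeq2 (adjusted p 0.038), with no filter on low counts (0.098), in the single fit of all 12 samples (0.045) and with length offsets (0.093). All week 3 samples of Acox57D-p lay below those of week 2 in control flies, as for 21.6% of all features, and its log2FC was -0.31 (standard error 0.11, adjusted p 0.13 by edgeR). CG9527 was the steadiest member by its group means, which ran from 125 to 144 CPM, with a log2FC of 0.11 and 0.16 with age. With length offsets these were 0.20 in control and 0.32 in CCM flies. The latter then passed by edgeR (adjusted p 0.066), as did 6167 of 12348 features, but not with the block added (0.11). For CG17544 the log2FC with age was -0.20 in control flies and -0.09 in CCM flies.

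Of the 6 members besides Acox57D-d, 1 (16.7%), Mfe2, passed with age in control flies by edgeR, where 31.3% of all features passed, 17.3% lower and 14% higher. In CCM flies 3 of the 6 (50.0%) passed, CG4586 lower and Mfe2 and ScpX higher, where 56% of all features passed. Neither share was above that of all features. The interaction of schedule and week was positive for the 6 members besides Acox57D-d, where it was positive for 6433 of 12530 features. It lay between 0.06 for ScpX and 0.68 for CG4586, and the 6 genes were measured in the same libraries. By edgeR 0 of the 6 passed beside 0% of all features, and 0 of the 6 had an unadjusted p under 0.05 where 4.55% of all features did. DESeq2 also called 0 of the 6, beside 0.00694%. For Acox57D-d the interaction was 0.29 (standard error 0.17), given as a description because week 2 enters it.

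The remaining genes of the peroxisomal pathway were counted from lists chosen with results of these data known. The first list held 15 other genes of peroxisomal metabolism, mostly of fatty acids, with Cat (catalase) and Uro (urate oxidase) also among them. Of these 14 were tested, and 0 passed at week 2 and at week 3 by edgeR. All features passed at 0% and 0.0164%. An unadjusted p under 0.05 was found for 0 and 5 of the 14, beside 5.67% and 12% of all features. DESeq2 called 0 and 2, the latter being Cat and Uro, beside 0.049% and 3.52% of all features. With the replicate block 4 passed at week 3, beside 9.34% of all features, among them bgm and Uro, which were lower, and Cat, which was higher.

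Cat encodes catalase, which removes the hydrogen peroxide that the oxidases make, and at week 3 it stood opposite to Acox57D-d. It was at 1418, 1258 and 1322 CPM in control flies and at 1629, 1590 and 1671 in CCM flies. All CCM samples were higher, as for 6.2% of all features, with a log2FC of 0.29 (standard error 0.05), an adjusted p of 0.30 without the block and of 0.051 with it, both by edgeR. Uro encodes urate oxidase, also a peroxisomal enzyme that yields hydrogen peroxide, and it was at 21.4, 31.5 and 24.1 CPM in control flies and 14.8, 14.7 and 17.9 in CCM flies. Here all CCM samples were lower, as for 11.1% of all features. The log2FC was -0.70 (standard error 0.19), with an edgeR adjusted p of 0.19 without the block and 0.041 with it. Both genes were picked for their block values after these had been seen.

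With age in control flies, 5 of the 14 passed, all higher, where 31.3% of all features passed in either direction and 14% were higher. Decr2, a dienoyl-CoA reductase-like gene named CG3699 in the annotation, went from 78.2 to 149.8 CPM. Phyh, similar to phytanoyl-CoA hydroxylase but named Phyhd1 in the annotation, went from 59.1 to 108 CPM. The others were bgm, a very long chain acyl-CoA synthetase, from 448 to 714 CPM, Cat from 867 to 1332 CPM, and Uro from 16.9 to 25.7 CPM. In this order the log2FC of the 5 genes were 0.94, 0.87, 0.67, 0.62 and 0.61. Phyh passed without any 1 library, and the others did not. Only 1 of the 14 passed without control week 2 A, where 1315 of 12259 features did. Without control week 2 B 5 passed, where 4953 of 12339 features did. In CCM flies 7 rose and 1 fell, where 26.4% and 29.6% of all features did. The median log2FC of the 14 was 0.22 in control and 0.31 in CCM flies, beside -0.03 for all features in both.

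Peroxins, the proteins that build and import into peroxisomes, gave 13 tested genes, of which 0 passed at week 2 and at week 3 by edgeR. At an unadjusted p under 0.05 there were 0 and 2, beside 5.67% and 12% of all features. DESeq2 called 0 at both weeks, beside 0.049% and 3.52% of all features. With age in control flies 3 rose, where 14% of all features did. Pex11c, of a family that acts in peroxisome division, went from 17.3 to 28.9 CPM (log2FC 0.74, standard error 0.08), Pex19, a chaperone for membrane proteins, from 97.0 to 126 CPM, and Pex5, the import receptor, from 75.6 to 94.2 CPM. Only Pex11c passed without each library in turn; Pex19 and Pex5 passed only without control week 2 B. In CCM flies 7 rose and 2 fell, among the latter Pex6, whose product acts in recycling the receptor, where 26.4% of all features rose and 29.6% fell. With offsets for gene length 4 rose and 1 fell, which was Pex3, where 3236 and 2931 of 12348 features did. Pex6 did not pass there. With the block added as well, 3 rose and 0 fell, where 2535 and 2171 features did. At week 3 Pex11c was at 37.6 ± 4.81 CPM in CCM flies and 28.9 ± 1.85 in control flies. All CCM samples were higher, as for 6.2% of all features, with an edgeR adjusted p of 0.25 and, with the block, 0.048. With the block and offsets for gene length, 0 of the 13 peroxins passed, where 549 of 12208 features did, so this call was lost.

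For comparison, 14 genes of mitochondrial beta-oxidation were tested, and 0 passed at week 2 and at week 3 by edgeR, by DESeq2 or with the replicate block. None had an unadjusted p under 0.05 at either week (0 of 14 in edgeR), where 5.67% and 12% of all features had. At week 3, 13 of the 14 had a log2FC above 0, where 6086 of 12208 features did. Their median was 0.14, beside -0.0014 for all features. The 14 genes were measured in the same 6 libraries, so this count is a description, and it is given without length offsets. With age in control flies, where 31.3% of all features passed, 2 of the 14 rose, Echs1, an enoyl-CoA hydratase (353 to 496 CPM), and wal, the alpha subunit of the electron transfer flavoprotein (357 to 478 CPM), and both passed only without control week 2 B when 1 library was left out. In CCM flies, where 56% of all features passed, 9 rose and Mtpalpha fell. With offsets for gene length only 2 rose, Echs1 and wal, where 3236 of 12348 features rose. The counts in CCM flies also depended on single libraries. Without CCM week 2 B, 4 mitochondrial genes and 5 of the other peroxisomal genes passed, where 5732 of 12441 features did. Without CCM week 3 C, 5 peroxins passed, where 6078 of 12513 features did.

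**Figure D4:**
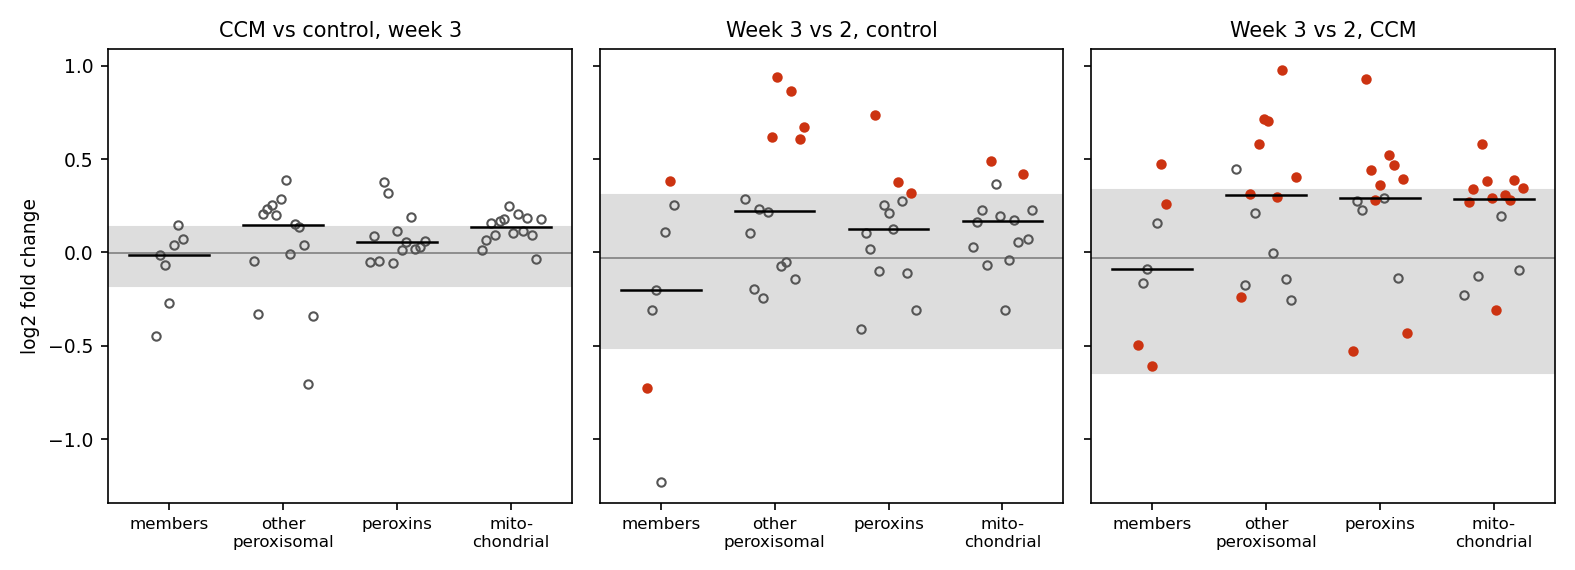
Log2FC of each tested gene (circles, red where the adjusted p by edgeR was under 0.1) for the 7 members and 3 further lists, with the list median as a black line and the middle 50% of all features in grey, for CCM against control at week 3 and for week 3 against week 2 in control and in CCM flies. Without the block no gene passed at week 3, and Acox57D-d (-0.45) and Uro (-0.70) were the lowest there of the members and of the further genes.

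Over all 12 samples, the genes whose log2 CPM followed that of Acox57D-d most closely were outside the pathway. Among 9016 features with a mean of at least 5 CPM, the 5 highest Pearson correlations were 0.94 for Fkbp39, a peptidyl-prolyl isomerase, 0.94 for mnd, an amino acid transporter, 0.93 for Mrp5, an ABC transporter, 0.93 for CG15014 and 0.93 for LysRS, the lysyl-tRNA synthetase. These are descriptions: the points share the libraries and the 4 groups, 347 features were above 0.8, and by Spearman's correlation only 1 of the 5 stayed in the first 5. Mrp5 had means of 106, 63.0, 47.8 and 36.8 CPM for control week 2, CCM week 2, control week 3 and CCM week 3. Of the members, Acox57D-p had a correlation of 0.82 with Acox57D-d, CG4586 0.76, CG17544 0.57, CG9527 -0.30, Mfe2 -0.62 and ScpX -0.66.

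Markers of tissues that whole flies hold also moved between the groups. The summed CPM of 6 ovary markers was 149 to 313 in control and 132 to 185 in CCM flies at week 2, and 52.3 to 71.1 in control and 32.4 to 52.9 in CCM flies at week 3. Most of it was osk, with means of 196, 148, 51.8 and 32.0 CPM in control week 2, CCM week 2, control week 3 and CCM week 3, while the other 5 ovary markers had higher means in CCM than in control flies at week 3. The sum of 4 fat body markers was 288 to 581 in control and 376 to 1205 in CCM flies at week 2, and 184 to 233 and 125 to 182 at week 3. Of these, 1 or 2 ovary markers and 2 or 3 fat body markers were above 1 CPM in every sample of a group. At week 3 the fat body sums of the schedules did not overlap, and those of ovary markers overlapped in part. The fat body sum was mostly apolpp, with means of 177 CPM in control and 117 in CCM flies at week 3, while Lsp2 stood at 0.453 and 0.577 CPM. The sum of 3 oenocyte markers ran from 10205 to 16418 over all samples and that of 5 testis markers from 88.2 to 246. At week 2 the sum of 5 accessory gland markers was 82.3 to 136 in control and 160 to 209.9 in CCM flies, without overlap, with 5 of 5 log2FC above 0 and a median of 0.77. At week 3 it was 94.5 to 173 and 119 to 187, with overlap. No counted marker was at 0 in all samples of a group, but Fbp1 of the fat body and the vitelline membrane genes Vm26Aa, Vm26Ab and Vm32E were at 3 counts or fewer in all samples of 1 or more groups. Exonic length moved with the samples too: the correlation across features of a sample's deviation with log2 length was 0.04 to 0.56 at week 2 and -0.55 to -0.13 at week 3. With length offsets the log2FC of Acox57D-d at week 3 was -0.44, with an adjusted p of 0.53 by edgeR without the block. The part of the tissue markers in the values of Acox57D-d was not tested.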

How the data were processed

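The authors used STAR for alignment to dm6 and MMquant for counting, which gives reads shared by several genes to a merged feature, on the BDGP6 annotation without non-coding genes. Tool versions and the use of strand are not given in the sources used here. The deposited values are these raw counts. Of 14413 features 1173 are merged. The 13240 single-gene features were matched by ID to a later BDGP6 annotation, and 98.38% had an exonic length. Of the listed genes, 7 did not match a counted feature and were left out.

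Features kept by filterByExpr were scaled by TMM, and edgeR's quasi-likelihood test (edgeR 4.0.16, R 4.3.3) was run on the 6 samples of each pair of groups, and for the interaction on all 12, with Benjamini-Hochberg adjusted p-values under 0.1 called. The log2FC are edgeR's. Standard errors come from replicates' log2(CPM + 0.5). The labels do not say that replicates came from separate cultures, so p-values measure the spread between these pools. Replicates differed by more than sampling noise, and their spread rather than the depth limits the precision.

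The replicate letters come from the sample titles. Same-letter samples deviated together at week 3 (correlations across features of 0.27, 0.58 and 0.54), but not at week 2 (0.11, -0.41, 0.08) or with age in control (0.02, -0.12, 0.12) or CCM flies (-0.31, -0.09, -0.36). The main fits, week 3 included, left the letters out, and only the fits with the replicate block took them as pairs. That pairing at week 3 was inferred from the same samples that were then tested.

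Alternatives were DESeq2 1.42.0, RLE normalization, no filter, a single fit of all 12 samples, the replicate block, length offsets (lowess, span 0.3) with and without the block, single-gene features, shares by CPM, Spearman's correlation and each library left out. GC content was not examined. On data simulated for week 3, with 200 features changed by a log2FC of 1 among 12066 tested, edgeR recovered 172 with 22 false calls. With a shift by letter added (12058 tested), it recovered 0 without the block and 174 with it, and with a length trend added (12060 tested) there were 1609 false calls without offsets and 19 with them. The shift and the trend were built into these simulated counts, on top of a spread estimated without the block. The simulations therefore check the fitting code only and do not test whether the letters pair the real samples.

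The members and lists were chosen with earlier results of these data known. Named genes are the 7 members, up to 4 genes per list past the threshold at week 3 or with age in control flies, and the 5 features most like Acox57D-d; other names were chosen after their values were seen. Some genes that the rule or the counts would name are not reported here.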

Additional observations from a re-analysis of the deposited data

How the results depend on the processing

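The log2FC of Acox57D-d kept its sign under every alternative run in each comparison. Leaving out 1 library at a time gave 0 members past the threshold at week 2, at week 3 and in the interaction. With age it gave 1 to 3 in control flies, where 1315 to 4953 of 12259 to 12362 features passed. In CCM flies it gave 3 to 4, where 5413 to 6788 of 12439 to 12513 features passed. These counts are over all 7 members, Acox57D-d included, whose week 2 values chose it, so its calls in fits with week 2 samples are no result. DESeq2 gave 1 at week 2, which is Acox57D-d itself. At week 3 the replicate block gave 1, the block together with length offsets also 1, and length offsets without the block 0. The single fit of all 12 samples gave 5 with age in control flies, where 5159 of 12530 features passed. Length offsets gave 5 with age in CCM flies, where 6167 of 12348 features passed. In the fits with age, where letters did not pair the samples, the block lost Mfe2 in control flies (adjusted p 0.14) and ScpX in CCM flies (0.11) and called CG4586 in control flies (0.068). The share of Acox57D-d by CPM was 10.2%, 7.24%, 6.93% and 5.19% in control week 2, CCM week 2, control week 3 and CCM week 3.

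Values near 0 changed sign. At week 2 the log2FC of Mfe2 was -0.0038 by DESeq2 and -0.0013 by RLE. At week 3 that of Acox57D-p was 0.0045 by DESeq2, 0.0060 by RLE and 0.017 with length offsets, without or with the block. With age in CCM flies that of CG17544 was 0.0090 with length offsets and 0.022 with the block added. With 1 library left out, week 2 values ran from -0.12 to 0.0033 for CG9527, -0.11 to 0.15 for Mfe2 and -0.073 to 0.096 for ScpX, and week 3 values from -0.048 to 0.030 for Acox57D-p, -0.61 to 0.10 for CG4586, -0.029 to 0.10 for CG9527 and -0.15 to 0.043 for CG17544. With age in CCM flies CG17544 ran from -0.23 to 0.078, and the interaction of ScpX from -0.00086 to 0.15. The causes were not tested.

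Over all features, 0 passed at week 2, against 7 by DESeq2, 2 in the single fit and 1 with length offsets and block. At week 3, 2 passed, against 354 by DESeq2, 1140 with the block (pairing the letters), 549 with length offsets and block, 0 in the single fit and 0 to 5 with 1 library left out. With age in control flies 3821 passed, and 1315 to 4953 with 1 library left out. In the interaction 0 passed, and 1 by DESeq2.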
